A study of Mus musculus with 4 samples.

Results

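The regions described here are 17 megabase windows of the mouse autosomes in which lymph node Treg cells of Il2ra mut/mut mice held more called ATAC-seq peaks than those of wild-type (WT) mice. Each peak was assigned to the 1 Mb window of its start. A window was kept where both mutant libraries held at least 20 peaks and the lower of the mutant counts was at least 2 times the higher WT count, and windows with 300 or more peaks in all 4 libraries were left out. Of the 2381 autosomal windows with a peak, 17 met this rule (0.714%), and they held 5449 of the peaks called on the autosomes. The windows were chosen by the peak counts of these same libraries, so all counts in them are descriptions and carry no test, and 2 libraries against 2 are too few for an exact permutation test to pass the usual threshold. The same rule turned around, with WT in place of the mutant, was met by 4 windows (0.168%), and 44 windows had 300 or more peaks in every library, none of which met the rule.

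The 4 libraries came from naive, unstimulated female mice of 6 to 8 weeks, 2 WT and 2 Il2ra mut/mut, all on the C57BL/6 background and all carrying a Foxp3-RFP reporter (Foxp3 Rfp/Rfp). RFP+ Foxp3+ CD4+ Treg cells were enriched from lymph nodes by negative selection and sorted by flow cytometry, and 50000 cells per library were used for ATAC-seq. The mutant allele is a spontaneous point mutation of CD25 that arose in a Ccr2-/- colony and was bred away from it by crosses to C57BL/6 mice, and whether mutant and WT mice were littermates is not given in the sources used here. A point mutation leaves the gene in place, so the peak lists cannot check the genotype labels. All 6 Treg markers and all 4 T cell markers examined (among them Foxp3, Ctla4, Cd3e and Cd4) had a peak within 1 kb of a transcription start site (TSS) in every library. Of the markers of other cells, Ebf1 of B cells had a promoter peak in all libraries, with 7 and 12 reads in WT and 9 and 7 in the mutant, and so had Cd8b1, with 16 and 20 against 11 and 11. The other B cell and CD8 markers and all myeloid, natural killer and erythroid markers had none.

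CD25, encoded by Il2ra, is the alpha chain that gives the IL-2 receptor its high affinity, and IL-2 signals through it to the transcription factor STAT5, on which Treg cells depend. In ATAC-seq, the Tn5 transposase inserts adapters preferentially where DNA is not wrapped in nucleosomes, so that reads pile up at promoters and enhancers. Promoters usually give strong peaks and enhancers weaker ones, and a peak caller marks any position where reads exceed the background.

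The sequences below show what the strongest peaks called in both mutant libraries and in neither WT library look like in these windows, beside peaks called in all 4 libraries. Each is 200 bases of the plus strand of mm10 around the summit in mutant library 1, outside annotated exons, in lower case with capitals where the bases match, on either strand, a word of a transcription factor family: GGAAGT for ETS, TGTGGT for RUNX, TTCNNNGAA for STAT5, TGANTCA for AP-1, TGTTTAC for FOX, AGATAA for GATA or GGGCGG for KLF. The first 4 are the mutant-only regions of highest rank, at most 1 from each window, and the last 2 are the highest-ranked regions called in all 4 libraries away from coding TSSs.
Lrrfip2 intron, chr9:111146457-111146656: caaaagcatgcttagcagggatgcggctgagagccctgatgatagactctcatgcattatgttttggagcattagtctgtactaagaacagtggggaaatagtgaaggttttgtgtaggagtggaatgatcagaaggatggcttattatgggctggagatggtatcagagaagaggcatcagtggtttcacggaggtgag
upstream of Sdk2, chr11:114162199-114162398: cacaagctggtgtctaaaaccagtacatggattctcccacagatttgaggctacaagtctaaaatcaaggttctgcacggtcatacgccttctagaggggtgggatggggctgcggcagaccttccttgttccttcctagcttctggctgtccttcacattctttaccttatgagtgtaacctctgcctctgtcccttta
near Gas1, chr13:60196197-60196396: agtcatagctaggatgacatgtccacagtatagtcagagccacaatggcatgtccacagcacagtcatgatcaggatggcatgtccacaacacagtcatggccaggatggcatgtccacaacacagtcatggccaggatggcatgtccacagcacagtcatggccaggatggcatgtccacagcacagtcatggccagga
between Plpp4 and Fgfr2, chr7:129960650-129960849: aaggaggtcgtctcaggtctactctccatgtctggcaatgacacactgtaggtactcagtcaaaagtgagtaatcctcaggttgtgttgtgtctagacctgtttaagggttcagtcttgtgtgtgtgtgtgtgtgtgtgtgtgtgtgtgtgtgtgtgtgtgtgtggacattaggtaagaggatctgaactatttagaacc
near Prkab1, chr5:116029173-116029372: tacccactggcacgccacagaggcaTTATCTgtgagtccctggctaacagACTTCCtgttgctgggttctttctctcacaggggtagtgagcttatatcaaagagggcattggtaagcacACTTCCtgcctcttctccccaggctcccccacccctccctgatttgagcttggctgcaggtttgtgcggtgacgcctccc
intron of 4930486L24Rik, chr13:60848828-60849027: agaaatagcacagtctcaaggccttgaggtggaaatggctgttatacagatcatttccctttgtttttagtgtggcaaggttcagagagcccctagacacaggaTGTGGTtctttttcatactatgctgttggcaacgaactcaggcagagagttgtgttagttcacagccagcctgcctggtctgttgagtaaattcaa

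The 4 mutant-only sequences contained no match to any of the 7 words. The sequence near Gas1 was a tandem array, with 89.9% of its bases identical to the base 31 positions further on, although none of it was soft-masked as repeat in the reference. The sequence between Plpp4 and Fgfr2 contained an uninterrupted run of 48 bases of alternating T and G. The sequence near Prkab1, which encodes a subunit of the AMP-activated kinase, held 2 ETS words and a GATA word, and that in the 4930486L24Rik intron held 1 RUNX word. A match of letters is a description and does not show that a factor binds there. The same words were counted around every summit, as given further on.

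The windows lay on 11 autosomes, with 3 each on chromosomes 2 and 14. Together they held 757 peaks in WT 1, 720 in WT 2, 1946 in mutant 1 and 2026 in mutant 2. These were 0.681%, 0.575%, 1.60% and 1.44% of the autosomal peaks of each library. The mutant lists were not uniformly longer: the autosomal lists had 111160 and 125168 peaks in WT and 121334 and 141090 in the mutant. Over the 1542 windows with at least 20 peaks in both mutant libraries, the median ratio of the lower mutant to the higher WT count was 0.868. In 427 of these windows (27.7%) the ratio was above 1. Such a ratio tends to lie below 1 where the genotypes do not differ, so 0.868 does not mean fewer mutant peaks. These windows were also picked by their mutant counts. A ratio of 1.5 was reached by 83 windows in the mutant direction and by 6 in the WT direction.

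The window with the highest ratio lay at chr14:9000001-10000000 and contained the 3' part of Fhit, a diadenosine polyphosphate hydrolase whose large gene spans a known fragile site. It held 16 and 18 peaks in WT cells and 88 and 94 in mutant cells, a ratio of 4.89. All other ratios lay between 2.00 and 2.56, so the Fhit window stood well apart from the rest. It was also the only window left when the required ratio was raised to 3.

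Several windows held few coding genes, of which 1 was long. At chr12:5000001-6000000, which holds all of Klhl29, a kelch-like family gene, 39 and 50 WT peaks stood against 128 and 130 mutant peaks. At chr3:50000001-51000000, with part of Slc7a11, the cystine/glutamate antiporter, the counts were 45 and 41 against 101 and 101. At chr14:17000001-18000000, with part of Thrb, the thyroid hormone receptor beta, they were 63 and 67 against 149 and 141. Coding gene bodies covered 34.6%, 44.4% and 34.0% of these 3 windows, so most of each lay outside coding genes. In each of these windows the spread within a genotype was small beside the gap between genotypes.

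The windows of chr7:129000001-130000000 and chr9:111000001-112000000 held the most peaks in every library. The former, with the phospholipid phosphatase gene Plpp4, had 127 and 126 WT peaks and 296 and 304 mutant peaks. The latter, with Stac, an adaptor of voltage-gated calcium channels, had 97 and 74 WT peaks and 245 and 282 mutant peaks. Both were gene-containing windows of high peak density already in WT cells. At chr5:116000001-117000000, with Ccdc60 and Srrm4, 82 and 65 WT peaks compared with 192 and 197 in the mutant. At chr11:114000001-115000000, which contains the 5' end of the adhesion gene Sdk2, the ribosomal protein gene Rpl38 and a cluster of Cd300 receptor genes, the counts were 76 and 53 against 170 and 172.

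Chromosome 2 contributed windows at chr2:16000001-17000000, with Plxdc2 and part of Malrd1, at chr2:20000001-21000000, with part of Etl4 and Arhgap21, and at chr2:113000001-114000000, with Ryr3, a ryanodine receptor, and the formin gene Fmn1. The first held 35 and 44 WT and 110 and 130 mutant peaks. The second held 31 and 31 WT and 62 and 90 mutant peaks, and the third held 14 and 10 against 33 and 31. The first and second lay 4.31 and 8.31 Mb from Il2ra, and the third lay 101 Mb away. The window of Il2ra itself was not a member, with 68 and 92 WT peaks and 67 and 97 mutant peaks. The window of Ccr2, at 14 and 19 against 12 and 14, was not a member either and lay 12.1 Mb from the nearest member. Whether DNA linked to the mutant allele differs between these lines was not tested.

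Chromosome 13 held a window at chr13:60000001-61000000, with Gas1, Dapk1, a death-associated kinase, and the Ctla2 and Tpbp genes, in which WT libraries had 46 and 48 peaks and mutant libraries 135 and 122. The other member window of chromosome 13 had 22 and 19 against 52 and 49. At chr18:69000001-70000000, with Tcf4, an E protein transcription factor, the counts were 24 and 24 against 57 and 71. The low-count members completed the set. At chr15:26000001-27000000, with the F-box gene Fbxl7, they were 19 and 16 against 41 and 40, and at chr14:80000001-81000000, a gene-poor window that only Olfm4 reached from its edge, 14 and 22 against 48 and 48. At chr7:33000001-34000000, in a cluster of secretoglobin genes, they were 7 and 12 against 39 and 24. In all 17 windows the lowest mutant count was above the highest WT count, which the rule itself required.

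**Figure D1:**
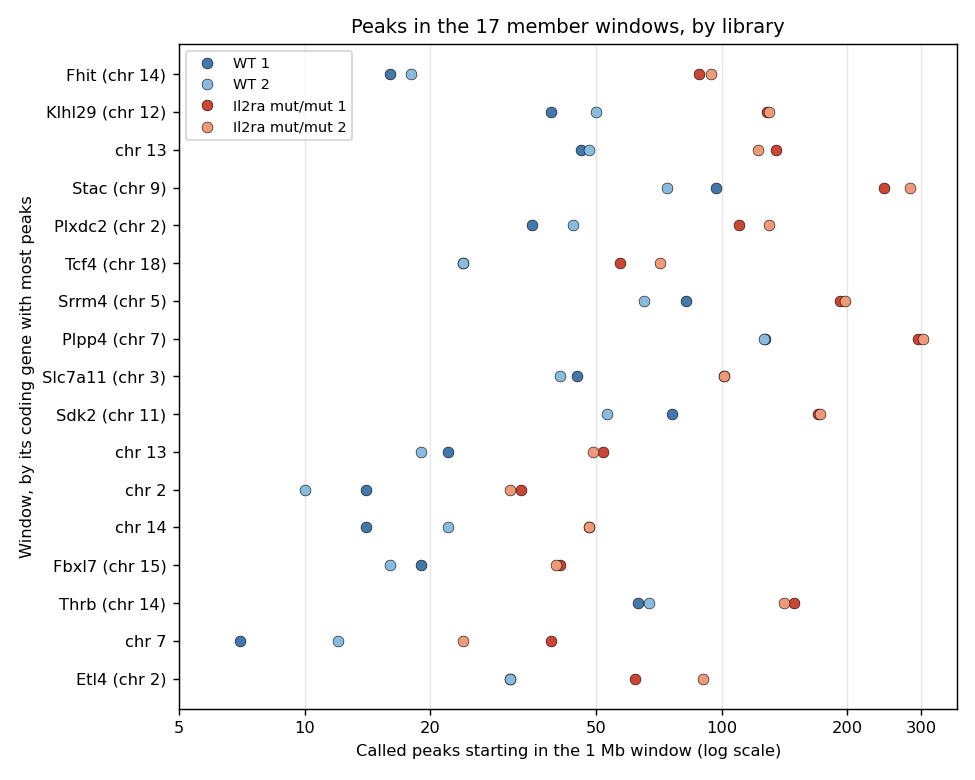
Number of called peaks (log axis) in each of the 17 windows, with a point per library (WT 1 and 2 in blue, Il2ra mut/mut 1 and 2 in red) and windows sorted by ratio. A window is named by the coding gene with most body peaks where that gene had at least 55 over the 4 libraries, and otherwise by its chromosome. The Fhit window at the top has the widest gap, from 18 WT to 88 mutant peaks, and the chromosome 7 window without a gene name, at 7 and 12 against 39 and 24, and the Etl4 window, at 31 and 31 against 62 and 90, have the widest spread between the mutant libraries on this axis.

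The cut-offs separated neighbouring values narrowly. Just inside the ratio were the Etl4 window at 2.00 and the secretoglobin window at 2.00. Just outside it were chr1:35000001-36000000, with 41 and 30 WT and 81 and 94 mutant peaks (1.98), and chr18:55000001-56000000, with 27 and 23 against 53 and 66 (1.96). Just under the minimum was chr6:36000001-37000000, with 5 and 8 WT peaks against 21 and 19. On the X chromosome, which the rule did not include, 0 of 149 windows with a peak met the same conditions.

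Within the windows the excess was spread over several 100 kb bins, more evenly in some windows than in others. Of the 170 bins of 100 kb in the 17 windows, 114 (67.1%) had more peaks in both mutant libraries than in either WT library, and 0 had fewer in both. Each window had between 4 and 10 such bins, with a median of 6, and the Plpp4 window had all 10. The bin with the largest excess held a median of 22.7% of its window's excess (range 15.0% to 31.7%). The top 3 bins together held a median of 59.1% (range 41.25% to 81.7%). Among bins with at least 8 peaks over the libraries, both mutant libraries were higher in 109 of 140 in the windows (77.9%) and in 16.4% of 13102 over the autosomes, where 9.56% had both lower. The rule chose the windows on the same counts.

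The longest unbroken run of higher bins touching a window spanned a median of 600 kb, from 200 kb to 1500 kb. In 14 of the 17 windows it was 500 kb or longer. The longest run, around Plpp4, held 183 and 174 WT peaks against 411 and 439 mutant peaks over 1500 kb. That around Stac extended over 1300 kb, with 183 and 197 against 512 and 558 peaks, and the Fhit run covered 1000 kb with 17 and 23 against 98 and 108. In 10 windows the run crossed a window edge, so the window borders are those of the grid and not of the data. Over all autosomes, 71 runs of at least 5 bins were higher in the mutant and 7 were higher in WT, and 14 of the former touched a member window.

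The mean profile rose and fell over about the width of the window. In the bin just left of the midpoint the libraries averaged 5.06 and 4.41 WT peaks and 12.9 and 11.8 mutant peaks per 100 kb. At 850 kb to the left they averaged 3.29 and 4.18 against 4.41 and 4.53, and at 950 kb to the right 3.12 and 4.41 against 4.88 and 5.18. Inside the windows the WT means, 3.18 to 5.24, stayed within the range of their flanks, while the mutant means rose above theirs. The rule chose the windows for such a gap, so the contrast with the flanks is a description only. Of the 34 windows directly next to a member, 33 had a WT peak. Their median ratio was 0.911, 8 had a ratio of 1.5 or more and 0 reached 2. A ratio of the lower mutant to the higher WT count can lie below 1 without any difference. Summed over the left neighbours, 589 and 774 WT peaks stood against 802 and 849 mutant peaks. On the right they were 657 and 760 against 967 and 1110, so both mutant libraries were higher on each side.

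**Figure D2:**
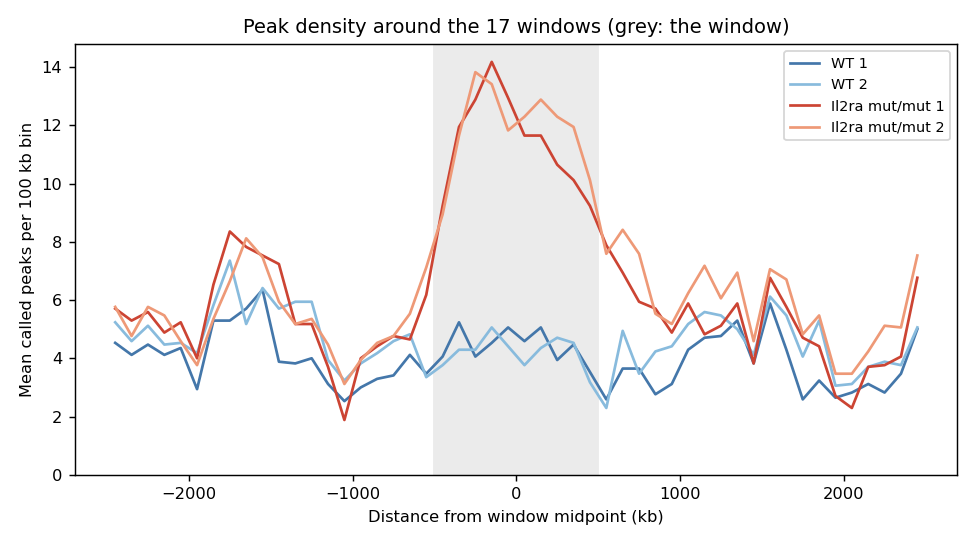
Mean number of called peaks per 100 kb bin against the distance in kb from the window midpoint, averaged over the 17 windows, with a line per library and the window in grey. Mutant libraries rise to 14.2 and 13.8 peaks per bin inside the window while WT libraries stay between 3.18 and 5.24, a gap for which the rule chose the windows.

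The windows did not stand out in base composition or repeats. Their median GC content was 41.4% (38.3% to 48.9%) beside 41.7% over 2403 autosomal windows, and the median share of soft-masked bases was 30.3% beside 31.8%. The secretoglobin window, at 54.4%, was the most repeat-rich. Members were poorer in genes, with a median of 2 TSSs of protein-coding genes (0 to 12) beside 5, although gene bodies covered a similar share, 41.1% beside 42.5%. The windows thus held few TSSs over a usual share of gene sequence.

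Most of the 69 protein-coding genes with a TSS in the windows had a promoter peak in all 4 libraries or in none. A promoter peak, within 1 kb of a TSS, was called in all 4 libraries for 26 genes (37.7%, beside 53.4% of 20807 autosomal genes). It was called in none for 30 (43.5%, beside 34.1%) and in 1 to 3 libraries for 13. Calls in 1 to 3 libraries were thus more frequent in the windows than over the autosomes. The number with a promoter peak in both mutant libraries and in neither WT library was 0, beside 123 of all 20807 autosomal genes (0.591%). Peaks near a coding TSS numbered 43 and 42 in WT and 55 and 58 in the mutant, a ratio of 1.28. Peaks farther away numbered 714 and 678 against 1891 and 1968, a ratio of 2.65. The excess was thus counted mostly away from promoters.

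Promoter peaks were called in all libraries for Rpl38, Klhl29, Gas1, Dapk1, Thrb, Tcf4, Wdr11, Scg5 and Arhgap11a. No library had a promoter peak for the placental genes Tpbpa and Tpbpb or for Grem1, a secreted BMP antagonist. Of the secretoglobin genes, Scgb2b21 and Scgb1b24 had 1 promoter peak each, in mutant 2, and the others had none.

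Most of the peaks lay outside coding genes. Outside coding gene bodies and promoters were 60.8% and 64.7% of the WT peaks and 64.3% and 63.4% of the mutant peaks of the windows, and in gene bodies away from promoters were 33.6% and 29.4% against 32.8% and 33.7%. The shares were thus similar in the genotypes. Over all autosomal peaks, 46.8% and 46.7% in WT and 48.4% and 48.1% in the mutant lay outside coding gene bodies and promoters. The window peaks thus lay outside coding genes more often than autosomal peaks in both genotypes. Among peaks of up to 10 reads away from coding TSSs, this share was 64.6% to 68.8% in the windows. Such autosomal peaks had 55.1% to 56.7%. Of 77 protein-coding genes that touch a window, 24 had more body peaks in both mutant libraries than in either WT library, beside 5.31% of all autosomal coding genes. Of the 31 longer than 50 kb it was 20, beside 12.1%. Since the windows were chosen for this difference, nothing is read from these shares. The measures also differ: counts for window genes cover the part of a gene inside its window, while the autosomal shares count whole gene bodies. Klhl29 had 18 and 22 body peaks in WT and 68 and 65 in the mutant. Stac had 23 and 13 against 68 and 74, and Slc7a11 24 and 24 against 57 and 63. In these 3 genes the counts of the genotypes did not overlap.

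Srrm4, the neuronal splicing regulator, had 23 and 10 body peaks in WT and 58 and 53 in the mutant. Sdk2, a synaptic adhesion molecule of which the window holds only the 5' end, had 13 and 6 against 30 and 22. Plxdc2, which encodes a plexin domain membrane protein, had 17 and 19 against 45 and 51. All 3 genes had higher counts in both mutant libraries, as had Plpp4, with 18 and 19 against 51 and 45. Fmn1, an actin nucleator, had 6 and 4 against 19 and 19, and Fbxl7, a ubiquitin ligase component, had 7 and 8 against 18 and 22. Thrb had 15 and 12 against 26 and 26. Tcf4, which lymphoid cells use, had 6 and 8 against 15 and 26, and here the mutant libraries also differed from each other.

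Genes that reached into a window from outside were added after their values were seen. In its part inside the window, Fhit had 6 and 2 WT peaks and 28 and 24 mutant peaks. Etl4, needed for intervertebral disc development, had 28 and 26 against 58 and 79, and Malrd1 had 5 and 2 against 15 and 14. Not every gene followed. Scg5 had 0 and 0 WT and 0 and 1 mutant peaks, and Grem1 had none in any library. Dapk1 had 5 and 8 WT and 5 and 14 mutant peaks, with overlapping genotypes, and in its window the run of higher bins ended before the gene began.

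**Figure D3:**
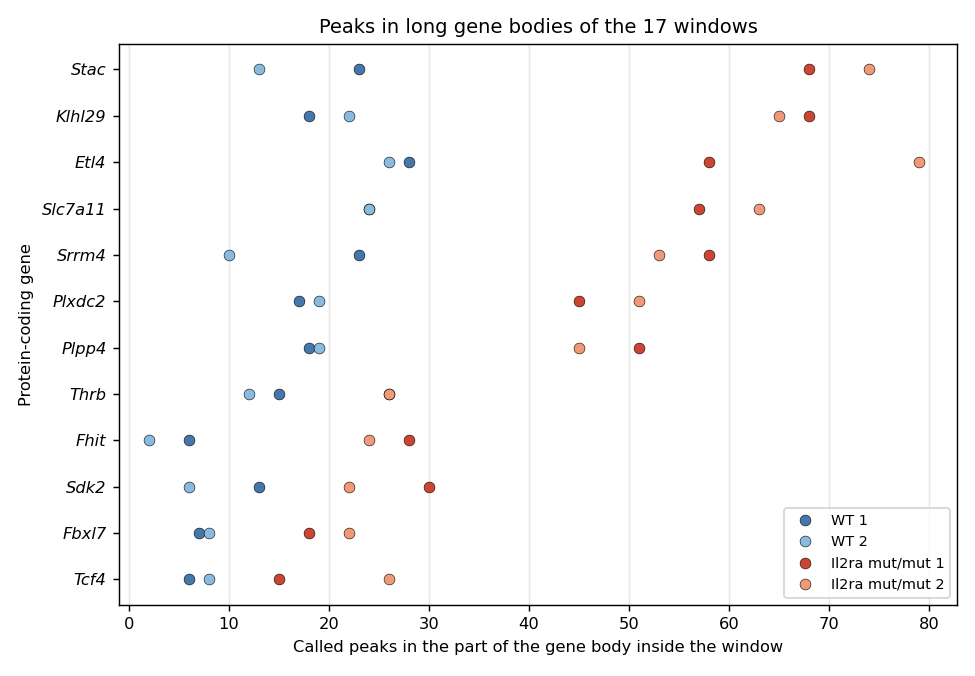
Called peaks in the body of protein-coding genes longer than 50 kb, inside the window, for the 12 genes with at least 55 such peaks over the 4 libraries, with a point per library. Both mutant libraries (red) lie above both WT libraries (blue) in these genes, which follows largely from the choice of windows and from the limit of 55 peaks.

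By gene family, the windows held 12 of the 34 autosomal secretoglobin genes, all in the chromosome 7 cluster. They held 0 olfactory, vomeronasal, keratin, cytochrome P450, protocadherin or other genes of the remaining lists of clustered or tissue-restricted families. The secretoglobin genes, which encode small secreted proteins of glands, carried hardly any peak themselves. Only Scgb1b24 had a body peak, 1 in mutant 2, while the window had 39 and 24 mutant peaks, so nearly all called peaks lay outside these genes.

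The peaks in these windows were weak. The number of reads at a summit was worked back from the fold enrichment, and the deepest genome-wide background was in mutant 1, with 1.23 reads, beside 0.974 and 0.979 in WT and 1.06 in mutant 2. The median peak of the windows had 7 reads in both WT libraries, 9 in mutant 1 and 8 in mutant 2, beside 8, 8, 10 and 8 over the autosomes. Peaks of up to 10 reads made up 90.1% and 87.2% of the WT peaks and 82.9% and 93.6% of the mutant peaks, beside 73.9%, 69.7%, 62.6% and 75.0% of all autosomal peaks. Peaks were also narrower, with median widths of 239 and 237 bp in WT and 253 and 245.5 bp in the mutant beside 281 to 308 bp.

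Peaks of over 20 reads were as few in the mutant as in WT libraries, 16 and 29 in WT and 21 and 20 in the mutant, so the genotypes overlapped. Read classes were not scaled for depth, which is unknown, so these counts compare the lists as deposited. Between 11 and 20 reads there were 59 and 63 against 312 and 110, where mutant 1 was far above mutant 2. Up to 10 reads the lower mutant count was 2.37 times the higher WT count. The excess that selected the windows was thus counted among peaks of up to 20 reads.

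**Figure D4:**
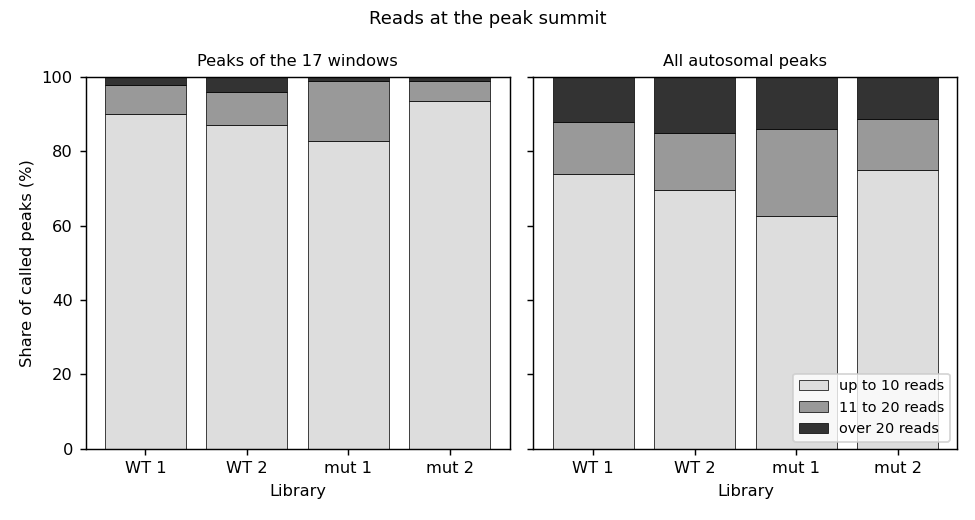
Share of called peaks (%) by the number of reads at the summit, for the peaks of the 17 windows (left) and all autosomal peaks (right), with a bar per library. Peaks of over 20 reads make up 0.987% to 4.03% of the window peaks and 11.3% to 15.0% of the autosomal peaks.

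The 10 strongest regions called in both mutant libraries and in neither WT library had between 11 and 17 reads at the summit in mutant 1 and 9 or 10 in mutant 2. The region in an intron of Lrrfip2 at chr9:111146378-111146827 had 17 and 10 reads, and that at chr11:114161911-114162550, 95.7 kb from the TSS of Sdk2, had 14 and 10. The tandem array at chr13:60195483-60196447, 18.1 kb from Gas1, had 11 and 10, and an intronic region of Stac at chr9:111577715-111578769 had 12 and 10. The 10 regions ranked at percentiles 66.2 to 83.0 of all peaks in mutant 1 and 62.3 to 71.4 in mutant 2, so even the strongest of them were of middling height. Regions tied at the last rank were taken in genomic order. A region with no call in WT may still have reads there, since the lists hold called peaks only.

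The letters under the peaks differed little from those of other weak peaks. The share of soft-masked bases was 17.1% and 16.3% in WT and 17.8% and 19.3% in the mutant, beside 14.0% to 14.6% over all autosomal peaks. Among peaks of up to 10 reads away from coding TSSs, it was between 17.96% and 19.9%, beside 16.4% to 17.1%. The STAT5 word occurred around 6.21% and 5.28% of WT summits and 6.22% and 5.73% of mutant summits, beside 5.86% to 6.22% of all autosomal summits. The KLF word occurred around 3.34% and 3.50% of mutant and 4.23% and 4.72% of WT summits, beside 9.34% to 10.3%. In weak peaks away from TSSs these shares were 1.98% to 2.74%, beside 2.60% to 3.09%.

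For the other words the window peaks were nearer to the autosomes than for the KLF word. The ETS word was found around 15.9% and 15.8% of WT and 13.6% and 13.5% of mutant summits, beside 16.7% to 17.7%. The RUNX word was found around 18.8% and 18.2% against 15.0% and 16.5%, beside 16.7% to 17.4%. Among peaks of up to 10 reads away from coding TSSs, the ETS shares were 14.6% and 13.6% in WT and 13.8% and 12.97% in the mutant. The genotypes overlapped, and such autosomal peaks had 14.0% to 14.5%. The RUNX shares were 18.6% and 18.9% against 15.1% and 16.8%, beside 16.4% to 16.9%. Here the genotypes did not overlap, and the difference was not tested. The AP-1, FOX and GATA words occurred around 5.70% to 6.66%, 2.62% to 3.57% and 9.46% to 11.1% of window summits, beside 6.87% to 7.54%, 2.62% to 2.77% and 8.95% to 9.67%.

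Peaks in the windows were seldom called at the same place in another library. Of the mutant 1 peaks, 27.3% overlapped a mutant 2 peak by at least 1 bp, beside 51.5% over all autosomes, and of the mutant 2 peaks 26.5% overlapped a mutant 1 peak, beside 44.7%. Between the WT libraries the shares were 22.9% and 23.5%, beside 52.7% and 45.5%. Between 12.8% and 13.9% of mutant peaks overlapped a peak of a given WT library, and 32.8% to 37.1% of WT peaks overlapped a peak of a given mutant library. Each share depends on how many peaks the other list holds in the windows.

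The gap was smaller, but still present, among weak peaks. Among peaks of up to 10 reads, 22.6% of mutant 1 and 23.8% of mutant 2 peaks of the windows overlapped the other mutant library, beside 32.9% and 29.7% of such peaks on all autosomes. For WT the shares were 16.6% and 14.0%, beside 37.5% and 27.2%. Peaks near coding TSSs were shared more often: 69.1% of those in mutant 1 and 63.8% in mutant 2 overlapped a peak of the other mutant library, beside 90.1% and 82.5%, and they numbered only 55 and 58.

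**Figure D5:**
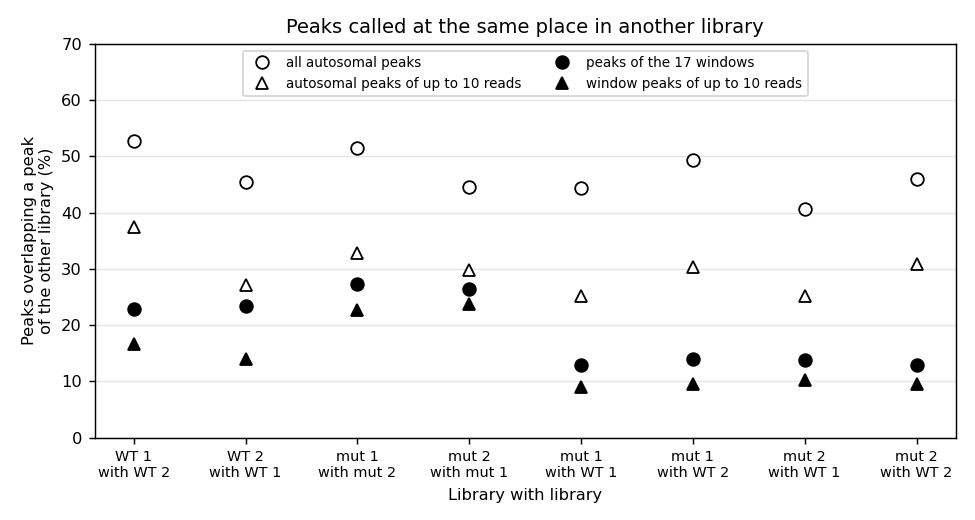
Share of the peaks of a library (%) that overlap a peak of another library by at least 1 bp, for pairs of libraries. Filled symbols are peaks of the 17 windows, open symbols all autosomal peaks, and triangles peaks of up to 10 reads; the window peaks lie below the autosomal peaks of the same kind in all 8 comparisons.

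Merging overlapping peaks gave 4093 regions in the windows. Of these 78.3% were called in 1 library only, beside 61.5% of autosomal regions, and 106 (2.59%) in all 4, beside 14.0%. Regions called in both mutant libraries and in neither WT library numbered 298 (7.28%, beside 3.57%), and those called in both WT libraries and in neither mutant library 20 (0.489%, beside 2.70%). Regions of 1 mutant library alone were the most common, with 1225 in mutant 1 and 1290 in mutant 2. In the 106 regions called in all 4 libraries, median reads were 11 and 14 in WT and 12 and 13 in the mutant, not scaled for depth.

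The number of windows depended on how the lists were put on a common scale. With counts scaled to list size, 6 windows met the rule, and with equal numbers of the top-ranked peaks of each library 7 did, of which 6 were among the 17. After scaling, the 17 windows had ratios between 1.66 and 4.63, so both mutant libraries stayed above both WT libraries in each. That was certain beforehand, since the lists differ too little in length to undo a ratio of 2. With equal numbers of peaks the ratios ran from 1.29 to 4.44, and 14 windows kept a ratio of 1.5 or more. The sequencing depth of the libraries is unknown. The genome-wide background was higher in both mutant libraries (1.23 and 1.06 reads) than in both WT libraries (0.974 and 0.979). Whether this contributes to the excess was not tested. Reads outside called peaks were not analysed here, so a higher density of weak peaks and a higher density of reads over the same stretch cannot be told apart.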

How the data were processed

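The deposited files are MACS2 narrowPeak lists, 1 per library, and no reads. Per the labels, the authors used Trim Galore 0.3.7, BWA 0.7.13, SAMtools 0.1.19, Picard 1.92 and MACS2 2.1.0 on mm10. The deposited columns used hold each peak's fold enrichment over background, the significance of that enrichment as −log10 of the p and q values, and a score equal to −log10 q times 10. Fold enrichment equals reads at the summit plus 1 over background plus 1, and its steps gave whole reads (largest residual 0.000127). The number of sequenced reads is unknown, so reads are given beside the autosomal peaks of the same library, and read classes set side by side between libraries are not scaled for depth. The lists hold 112569 and 126761 (WT) and 122776 and 142732 (mutant) peaks.

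Sequence and soft-masking came from GRCm38.p6, whose chromosome lengths match mm10 (0 peaks past an end), and genes from GENCODE basic annotation. A promoter peak lay within 1 kb of a TSS, words were searched in 200 bp around summits, and overlap meant at least 1 bp. Counts over windows, bins and genes were descriptions, with no test. The members, gene lists and alternatives were chosen with earlier results of these data known. Named were all windows, up to 4 of their longest coding genes, the 10 highest-ranked mutant-only regions, the windows beside the limits, and Il2ra and Ccr2. Other genes of a window were named after their values were seen, and 2 genes that the rule names, with the strongest peak, are not reported here. Alternatives changed the grid, limits, peak threshold, scaling, overlap, annotation and libraries. Python 3.11.15, pandas 2.3.3, numpy 2.4.6 and matplotlib 3.10.9 were used, and all 7 checks on simulated data passed.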

Additional observations from a re-analysis of the deposited data

How the results depend on the processing

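The number of windows stayed within 1.5 times of 17 with summits in place of starts, a grid shifted by 0.5 Mb, minimums of 10 or 30 peaks, identical intervals counted once, and only peaks with no more than 50% soft-masked bases. The limit on soft-masked bases gave 17 windows, of which 15 were among the original 17. The number moved to 61 with 0.5 Mb windows, 4 with 2 Mb windows, 83 at a ratio of 1.5, 1 at a ratio of 3, 7 with equal numbers of peaks and 6 with counts scaled to list size. With −log10 q of at least 3 it was 54, 12 of them among the 17. That limit kept 61.3% and 64.7% of autosomal peaks in WT, 89.8% in mutant 1 and 62.8% in mutant 2. The mirrored rule gave 4. Leaving out 1 library gave 29 to 55 windows, since a rule over fewer libraries is met more easily. All 17 remained in each, which was certain beforehand for the same reason. The median summit height relative to the autosomes, 0.912 on average over the libraries in reads, was 0.705 as a percentile rank and 0.85 with −log10 q of at least 3. The mean share of window peaks near a TSS was 4.30%, 7.16% within 5 kb and 7.52% for all annotated genes. The mean overlap within a genotype was 25.03%, 19.9% when an overlap had to cover 50% of the shorter peak and 27.9% with −log10 q of at least 3. Counting all annotated genes raised the median per window from 2 to 13. No other value moved by more than its spread. No paired analysis was possible because no result comes from a test. The lists hold called peaks only, so signal below the calling threshold was not analysed here.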
